A study of Homo sapiens with 6 samples.

Results

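The RBM genes are a set of human genes whose symbols begin with RBM, for RNA-binding motif, followed by a number. Members were taken by symbol alone: every protein-coding gene on an autosome or the X chromosome that carries such a symbol in the GENCODE annotation. This gave 38 genes of the 35580 genes to which the deposited transcript tables could be joined, with 370 transcripts between them. Of these genes, 36 passed the filter on low counts and were tested. RBM11 and RBM46 did not pass.

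Most RBM proteins hold at least 1 RNA recognition motif, a fold that grips a short stretch of single-stranded RNA. They share this fold rather than a task: some are parts of the spliceosome, which removes introns, and others mark spliced messages, place m6A methyl groups on RNA, feed RNA to the nuclear exosome for destruction, or help to assemble ribosomes. Many genes for splicing proteins also make transcripts with a retained intron or a premature stop codon, and the latter can be destroyed by nonsense-mediated decay.

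The study sequenced messenger RNA of Rh30 cells, a human alveolar rhabdomyosarcoma line carrying the PAX3-FOXO1 gene fusion. The 2 groups were control cells and cells with a small interfering RNA against DDX5, a DEAD-box RNA helicase, here called siDDX5. Each group had 3 libraries, described in the labels as biological replicates. The labels give neither the control's RNA nor the time between transfection and harvest, and a single line and a single knockdown label were used.

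Total estimated counts ran from 21265569 to 26156858 in the control libraries and from 18202402 to 19971888 in the siDDX5 libraries, so that 3 counts corresponded to 0.115 to 0.165 CPM (counts scaled to a common library size). DDX5 itself was at 1350, 1430 and 1140 CPM in control libraries 1, 2 and 3 and at 549, 504 and 396 CPM in the siDDX5 libraries, which is -1.44 on the log2 scale (SE 0.15, adjusted p = 0.0106 in edgeR). Leaving out control library 1, siDDX5 library 1 or siDDX5 library 2 moved the edgeR adjusted p to between 0.0531 and 0.0955. Of 11 genes that mark rhabdomyosarcoma or its muscle program, 10 had a mean of at least 10 CPM, while TFAP2B was at 0 in all 6 libraries. Their summed level was 1440 to 2000 CPM in controls and 1520 to 1670 CPM with siDDX5. Of 8 markers of blood, endothelial, epithelial and liver cells, 1 (PECAM1) had a mean of at least 10 CPM, and the summed level was 14.6 to 17.8 CPM in controls and 15.6 to 18 CPM with siDDX5.

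The RBM genes differed widely in level. In TPM, a unit that corrects for transcript length and so allows genes to be set side by side, the mean over the 6 libraries was at least 100 TPM for 9 genes, between 10 and 100 TPM for 22, between 1 and 10 TPM for 3, and under 1 TPM for 4. RBM39, a spliceosome-associated relative of the splicing factor U2AF, was the highest at 420 ± 53.0 TPM (SD over 6 libraries). RBM3, a protein induced by mild cold, followed at 386 ± 138 TPM, and these 2 genes did not differ beyond their spread. RBM17, an early spliceosome component also called SPF45, was at 184 ± 18.2 TPM.

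Below these, RBM8A, RBM12, RBM5, RBM25 and RBM4 had means of 160, 142, 142, 133 and 127 TPM, with SDs between 14 and 28.9 TPM, so that neighbours in this order did not differ beyond their spread. At the other end stood the genes known from other tissues. RBM47, known from epithelia, was at 0.843 ± 0.292 TPM, and RBM44, a germ-line gene, was at 0.305 ± 0.0995 TPM. RBM46, also of the germ line, had 1 count in control library 2 and none in the other 5 libraries. RBM11, known from brain and testis, had 0 counts in all 6 libraries, which at this depth allows a level of up to 0.115 to 0.165 CPM per library.

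**Figure D1:**
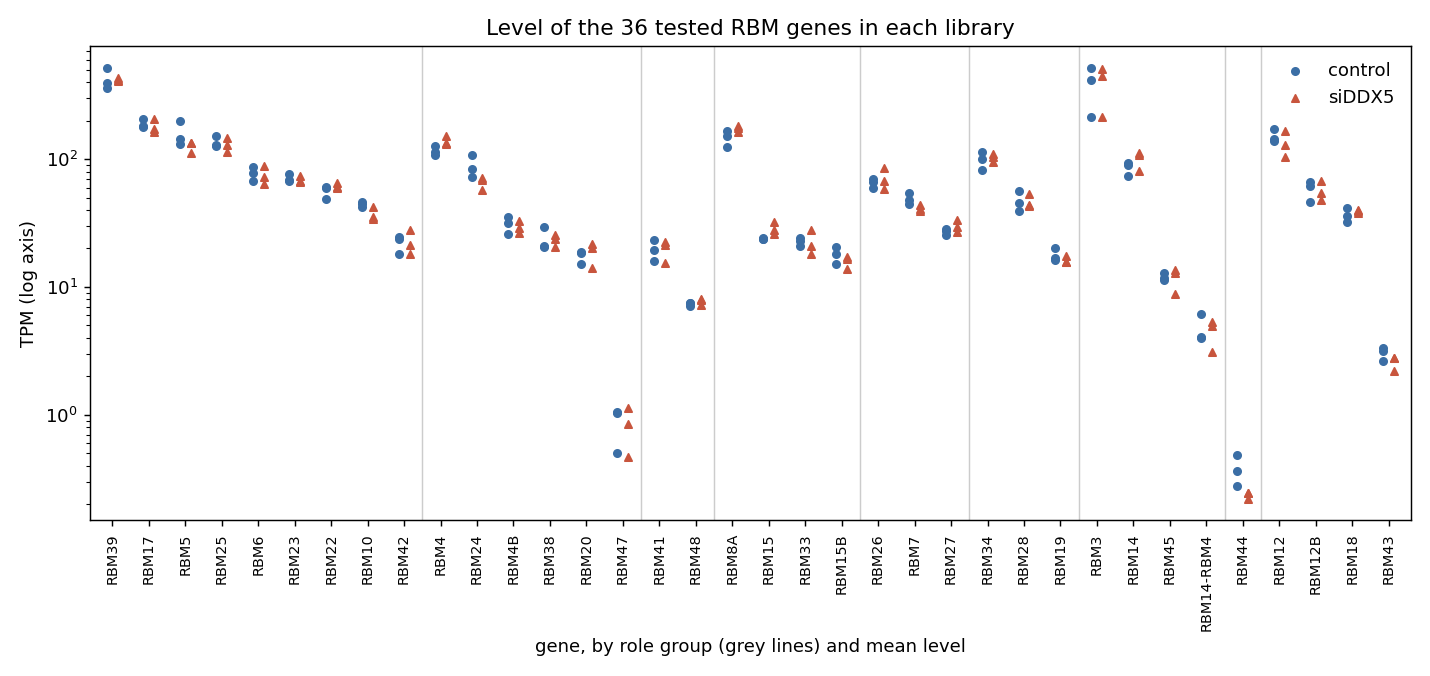
TPM of the 36 tested RBM genes in each of the 6 libraries, on a log axis, with circles for control and triangles for siDDX5. Genes are ordered by role group and by level, and the scatter of most genes covers both groups, with RBM39 at a mean of 420 TPM and RBM44 at 0.305 TPM.

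With siDDX5, no single RBM gene was called as changed in level, taking counts summed over each gene's transcripts. No member passed an adjusted p of 0.05 in edgeR's quasi-likelihood test (0 of 36), against 25 of 15223 genes tested overall (0.164%, or 0.0526% higher and 0.112% lower). With the replicate number as a block, 0 of 36 members passed against 394 of 15223 genes (2.59%). At an unadjusted p under 0.05 there were 2 members, RBM15 and RBM10, against 1731 genes (11.4%). With the block there were 7, against 3125 genes (20.5%). Without the block, these p-values set a difference against the spread between the 3 replicates of each group. With the block, they set it against the spread of the differences between same-numbered libraries. In bulk RNA a change in the RNA per cell and a change in the share of cells cannot be told apart.

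The log2 fold changes of the 36 genes ran from -0.65 to 0.28 with a median of 0.01, with 20 above 0 and 16 below. Their median size without sign was 0.127, against 0.161 over all genes tested. For 30 of the 36, the 95% interval lay within a 1.5-fold change in either direction, as it did for 8189 of the 15223 genes tested. The exceptions were RBM3, RBM24, RBM43, RBM14-RBM4, RBM47 and RBM44.

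**Figure D2:**
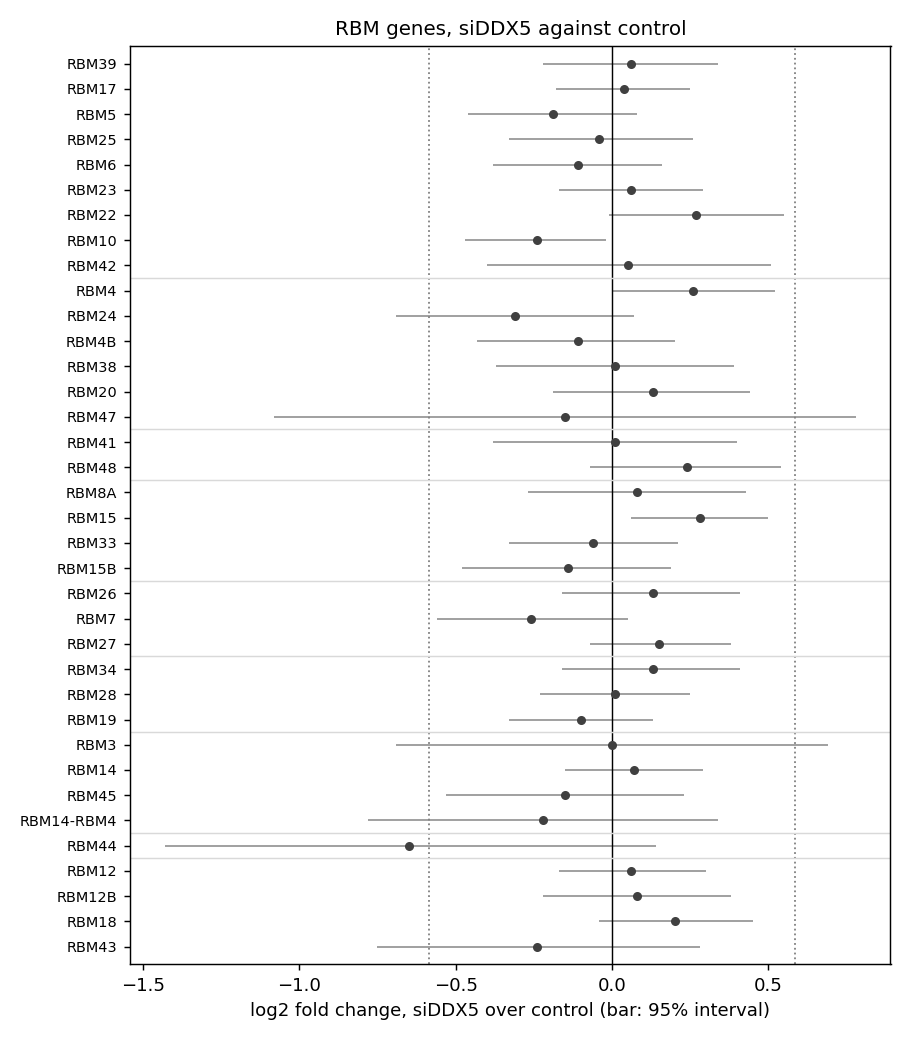
The log2 fold change of siDDX5 over control for each tested RBM gene (points) with its 95% interval (bars), grouped by role. Dotted lines mark a 1.5-fold change in either direction, and 30 of the 36 intervals lie between them.

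The 3 control and 3 siDDX5 libraries did not overlap in 7 of the 36 members (19.4%), against 18% of all genes tested, a share close to that background. RBM15, RBM27 and RBM48 were higher in every siDDX5 library than in any control (3 of 36, against 8.87% of all genes), and RBM10, RBM7, RBM19 and RBM44 were lower (4 of 36, against 9.16%). Between same-numbered libraries, 8 of the 36 members were higher with siDDX5 in all 3 pairs, against 21.8% of all genes tested, and 9 were lower in all 3, against 21.1%.

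The spliceosome group held 9 genes. RBM10, a splicing regulator that promotes exon skipping, was at 103, 107 and 106 CPM in the controls and 81.6, 90.3 and 94.4 CPM with siDDX5. All 3 siDDX5 libraries lay below all 3 controls, and the log2 fold change of -0.24 (SE 0.10) had an edgeR adjusted p of 0.410. RBM22, which sits in the catalytic core of the spliceosome, was at 54.9, 64.7 and 62.5 CPM in the controls and 63.1, 81.4 and 75.4 CPM with siDDX5. It was higher in each of the 3 same-numbered pairs, but siDDX5 library 1 fell within the control range, and the log2 fold change of 0.27 (SE 0.12) had an edgeR adjusted p of 0.450.

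RBM5 and RBM6 are neighbouring relatives of RBM10 on chromosome 3, and their annotated spans overlap on the same strand, so that reads there may be split between them. RBM5 was at 103, 135 and 114 CPM in the controls and 102, 99.2 and 107 CPM with siDDX5. RBM6 was at 104, 121 and 120 CPM in the controls and 104, 95.2 and 121 CPM with siDDX5. The groups overlapped in both genes, with log2 fold changes of -0.19 (SE 0.12) and -0.11 (SE 0.12).

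The 5 remaining spliceosome members, RBM39, RBM17, RBM25, RBM23 and RBM42, had log2 fold changes between -0.04 and 0.06. RBM25, which acts with the U1 particle, was at 293, 374 and 294 CPM in the controls and 339, 321 and 276 CPM with siDDX5, and these ranges overlapped. Among 12 partner genes of the early and U2 spliceosome, 0 passed the test, and the median log2 fold change was 0.04. PRPF8, the scaffold of the spliceosome's active site, was the one of these furthest from 0, at 479, 384 and 374 CPM in the controls and 377, 300 and 307 CPM with siDDX5 (log2 fold change -0.33, edgeR adjusted p = 0.411), with siDDX5 library 1 inside the control range.

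RBM41 and RBM48 belong to the minor spliceosome, which removes a rare class of introns. RBM48 was at 12.4, 11.9 and 13 CPM in the controls and 13.2, 15.4 and 15.3 CPM with siDDX5. Although the groups did not overlap, the log2 fold change of 0.24 (SE 0.14) had an edgeR adjusted p of 0.541. RBM41 had a log2 fold change of 0.01 (SE 0.17). ARMC7, the binding partner of RBM48, was at 13.8, 14.3 and 8.78 CPM in the controls and 11.6, 11.7 and 8.64 CPM with siDDX5, and of the 8 partner genes of the minor spliceosome 0 passed the test.

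Another 6 tested members regulate splicing in particular tissues, and RBM11, also in this group, was not detected. RBM24, a muscle splicing regulator, was at 73.6, 92.6 and 63.8 CPM in the controls and 56.7, 74.9 and 53.8 CPM with siDDX5. Each siDDX5 library was below its same-numbered control while the groups overlapped. The log2 fold change was -0.31 (SE 0.17), with an edgeR adjusted p of 0.522, or 0.0818 with the replicate block, the lowest of any member in that fit. RBM4, which regulates splicing during muscle cell differentiation, was at 98.6, 114 and 102 CPM in the controls and 110, 133 and 134 CPM with siDDX5. The log2 fold change of 0.26 (SE 0.12) had an edgeR adjusted p of 0.446, and siDDX5 library 1 lay within the control range.

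RBM4 lies beside its close paralog RBM4B on chromosome 11. The 2 genes overlap on opposite strands, and the read-through gene RBM14-RBM4 spans RBM14 and RBM4, so estimated counts may be shared among these genes. RBM4B had a log2 fold change of -0.11 (SE 0.14). RBM20, which governs the splicing of titin in heart and skeletal muscle, was at 59.8, 69.0 and 73.4 CPM in the controls and 77.9, 59.7 and 83.1 CPM with siDDX5, with overlapping groups. RBM38, a target of p53, had a log2 fold change of 0.01 (SE 0.17).

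Of 12 muscle splicing targets and co-regulators, 0 passed the test. TTN, which encodes titin, was at 53.3, 47.3 and 41.1 CPM in the controls and 81.9, 29.8 and 32.3 CPM with siDDX5, a wide spread set by siDDX5 library 1. CELF1 and CELF2, a pair of RNA-binding regulators of muscle splicing, stood apart between groups in opposite directions (2 of 12, or 16.7%, against 18% of all genes tested). CELF1 was at 177, 234 and 212 CPM against 243, 251 and 254 CPM with siDDX5 (log2 fold change 0.26, edgeR adjusted p = 0.444). CELF2 was at 200, 216 and 207 CPM against 184, 167 and 169 CPM with siDDX5 (log2 fold change -0.26, edgeR adjusted p = 0.355).

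RBM15, RBM15B, RBM8A and RBM33 act on messages after splicing or in m6A methylation. RBM15, an adaptor that brings the m6A writer complex to RNA, was at 60.1, 59.8 and 57.5 CPM in the controls and 76.7, 70.7 and 68.0 CPM with siDDX5. The groups did not overlap, and its log2 fold change of 0.28 (95% interval 0.06 to 0.50) was the largest increase among the members in this fit, with an edgeR adjusted p of 0.329, or 0.105 with the replicate block. Its paralog RBM15B was at 92.7, 104 and 74.7 CPM in the controls and 82.8, 93.1 and 70.1 CPM with siDDX5, with a log2 fold change of -0.14 (SE 0.15) and overlapping groups.

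Among 6 genes of the m6A writer, 0 passed the test. METTL14 and VIRMA were higher in every siDDX5 library than in any control (2 of 6, against 8.87% of all genes tested). VIRMA, a scaffold of the writer, was at 76.0, 85.8 and 81.9 CPM against 95.6, 98.2 and 92.6 CPM with siDDX5 (log2 fold change 0.23, edgeR adjusted p = 0.420). METTL3, the catalytic subunit, had a log2 fold change of -0.09 (SE 0.10). RBM8A, also known as Y14, is a core protein of the exon junction complex left on spliced messages, and was at 133, 113 and 171 CPM in the controls and 129, 148 and 163 CPM with siDDX5. Its partner MAGOH had a log2 fold change of 0.12 (SE 0.12), and 0 of 8 exon junction genes passed the test. EIF4A3, the helicase that anchors this complex, and UPF3B, which links it to nonsense-mediated decay, were higher in every siDDX5 library than in any control (2 of 8). Their log2 fold changes were 0.26 and 0.25 (SE 0.12 each, edgeR adjusted p = 0.447 and 0.457). Both lists are short, and over all 66 partner genes 5 were higher in this way, against 8.87% of all genes tested.

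RBM7, RBM26 and RBM27 supply RNA to the nuclear exosome. RBM7, the RNA-binding subunit of the nuclear exosome targeting complex, was at 38.5, 38.9 and 46.2 CPM in the controls and 29.3, 36.8 and 37.4 CPM with siDDX5. The groups were separate, and the log2 fold change of -0.26 (SE 0.14) had an edgeR adjusted p of 0.514. RBM27, which works with RBM26 in the decay of polyadenylated nuclear RNA, was at 81.4, 91.6 and 89.9 CPM in the controls and 100, 98.5 and 93.5 CPM with siDDX5, or 0.15 on the log2 scale (SE 0.10, adjusted p = 0.596 in edgeR). RBM26 overlapped between groups (log2 fold change 0.13, SE 0.13). Of 6 partner genes in nuclear decay, 0 passed the test, and MTREX, the helicase shared by these complexes, had a log2 fold change of 0.00 (SE 0.10).

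The nucleolar members were RBM19, RBM28 and RBM34. RBM19, a ribosome assembly factor, was at 44.1, 49.4 and 45.0 CPM in the controls and 41.5, 43.9 and 43.8 CPM with siDDX5. These ranges came close without overlapping, and the difference was -0.10 on the log2 scale (SE 0.10, adjusted p = 0.762 in edgeR). RBM28 and RBM34 had log2 fold changes of 0.01 (SE 0.11) and 0.13 (SE 0.13) with overlapping groups. Of 6 ribosome biogenesis genes, 0 passed the test. NOP58, a core protein of box C/D particles, was at 115, 151 and 106 CPM in the controls and 150, 192 and 137 CPM with siDDX5, and was higher in each same-numbered pair. Its log2 fold change was 0.36 (SE 0.17), with an edgeR adjusted p of 0.450, or 0.0532 with the replicate block.

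RBM3 showed the widest scatter among the abundant members. It was at 442, 360 and 200 CPM in control libraries 1, 2 and 3 and at 387, 412 and 202 CPM in the matching siDDX5 libraries. Both libraries numbered 3 were low, whatever the treatment, and the log2 fold change was 0.00 with a 95% interval of -0.69 to 0.69. CIRBP, the other well-known cold-inducible RNA-binding protein, was at 187, 167 and 138 CPM in the controls and 129, 147 and 92.4 CPM with siDDX5. Its log2 fold change was -0.42 (SE 0.18), with an edgeR adjusted p of 0.412, or 0.0574 with the replicate block.

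RBM14, a paraspeckle protein, had a log2 fold change of 0.07 (SE 0.10), and 0 of 4 other paraspeckle genes passed the test. RBM45, which is found in stress-related inclusions, had a log2 fold change of -0.15 (SE 0.17). Of the 66 partner genes, 0 passed with or without the block, 4 had an unadjusted p under 0.05 (14 with the block), and 8 had groups that did not overlap (12.1%, against 18% of all genes tested).

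Among the remaining members, RBM44 had 9 to 23 counts per library and was at 0.895, 0.513 and 0.825 CPM in the controls and 0.445, 0.487 and 0.495 CPM with siDDX5. Its log2 fold change of -0.65 had a 95% interval of -1.43 to 0.14. RBM18, a small and little-studied member, was at 63.1, 74.9 and 68.4 CPM in the controls and 74.1, 84.5 and 78.9 CPM with siDDX5, with a log2 fold change of 0.20 (SE 0.11). RBM12, RBM12B and RBM43 had log2 fold changes of 0.06, 0.08 and -0.24. RBM24, RBM4, RBM18, RBM5, RBM20 and the partner genes given with values were chosen after their values were seen. RBM25, RBM8A, RBM15B and RBM44 are also given with values although the naming rule stated below does not cover them.

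**Figure D3:**
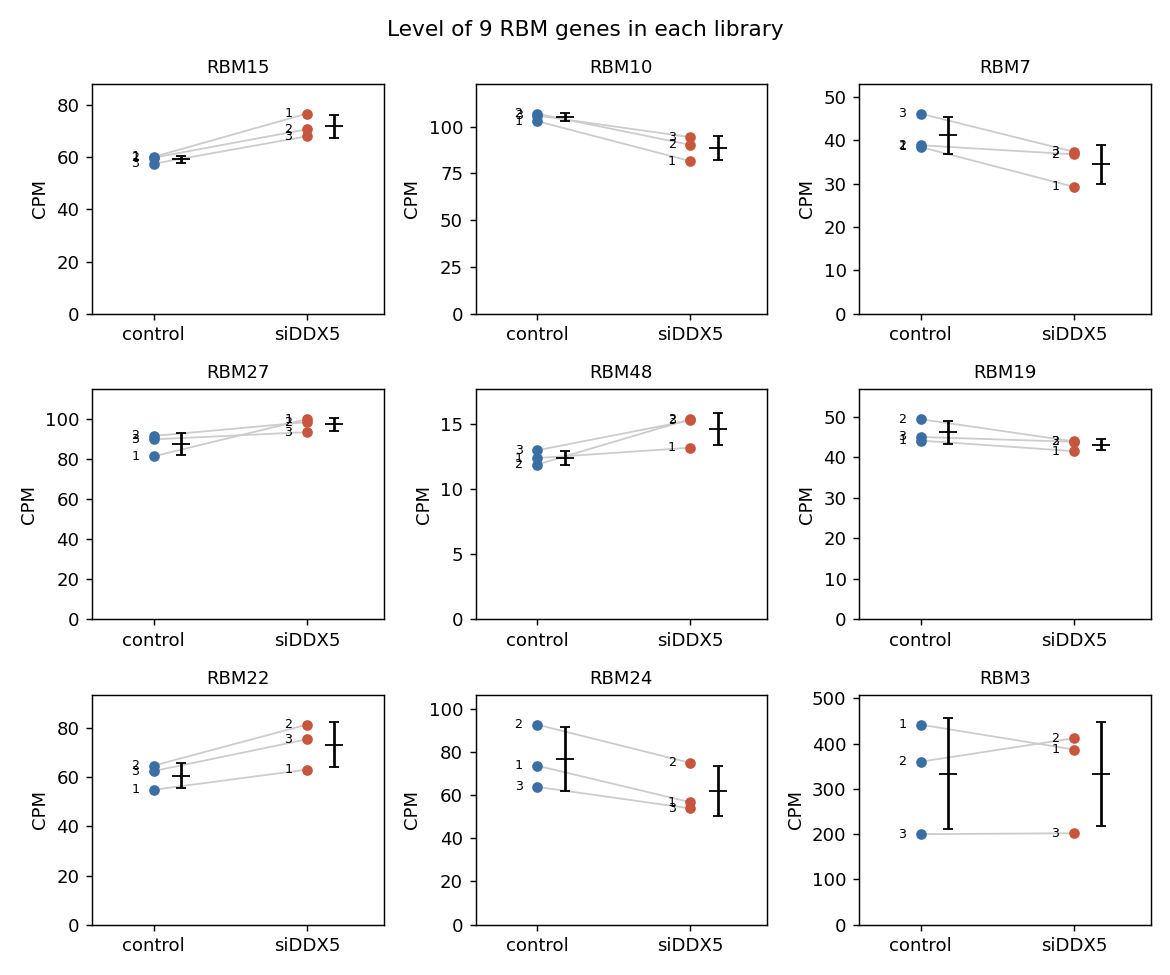
CPM of 9 RBM genes in each library (points, labelled by replicate number), with the mean and SD of each group beside them and grey lines joining libraries of the same number. The groups do not overlap for RBM15, RBM10, RBM7, RBM27, RBM48 and RBM19, while RBM22, RBM24 and RBM3 overlap, and both RBM3 libraries numbered 3 sit near 200 CPM.

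The annotation's transcript types were grouped as coding, decay (nonsense-mediated or non-stop decay), retained intron, or any other type, called other noncoding here. Of the 370 member transcripts, 188 were coding, 36 decay, 77 retained intron and 66 other, and 3 transcripts of RBM15 had no type. Summed over the members, coding transcripts held 80.7% ± 2.45 of estimated counts in the controls and 81.7% ± 0.445 with siDDX5 (SD, n = 3 each). Retained-intron transcripts held 10.3% ± 2.22 and 10% ± 0.441. Over all protein-coding genes, coding transcripts held 88.9% ± 0.971 and 89.6% ± 0.388, and retained-intron transcripts 5.66% ± 0.642 and 5.16% ± 0.195. In TPM, which corrects for transcript length, the members' coding share was lower, at 65.4% ± 3.78 in the controls and 66% ± 0.65 with siDDX5. Over all protein-coding genes, the coding share in TPM was 78.8% ± 1.77 and 80.3% ± 1.52. The members thus had a larger share of their counts in retained-intron transcripts than protein-coding genes as a whole in each of the 6 libraries, 8.68% to 12.8% against 4.94% to 6.37%, while the 2 treatment groups overlapped in both sets.

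This share came from a few genes. By estimated counts, the coding share was at least 90% in 20 of the 36 tested genes and under 70% in 9. These numbers hold for counts alone. In TPM, RBM20 had a coding share of 70% over the 6 libraries, against 97.7% by counts. RBM41 went the other way, at 61.9% in TPM against 57% by counts. RBM39 stood out as the most abundant member with a minority of its counts in coding transcripts: 33.2% ± 5.11 in the controls and 37.0% ± 4.72 with siDDX5. Retained-intron transcripts held 41.7% ± 4.51 and 42.0% ± 2.47 of its counts. RBM5 had 38.2% ± 6.13 and 37.1% ± 1.51 in retained-intron transcripts, and RBM25 30.9% ± 7.24 and 31.8% ± 6.16. RBM41 had 40.5% ± 3.13 and 40.8% ± 2.28 of its counts in a single decay transcript, and the read-through gene RBM14-RBM4 had 88.9% ± 3.99 and 83.6% ± 6.63 in its decay transcript. RBM14-RBM4 had only 52.6 to 117.3 estimated counts per library, which may be shared with RBM14 and RBM4. Its decay share in TPM was 62% ± 8.98 and 51.8% ± 10.4. Groups overlapped in each of these shares.

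Of the 26 members that could be tested for class usage, 0 passed edgeR's test at an adjusted p of 0.05, against 27 of 8326 genes (0.324%), and 1, RBM28, had an unadjusted p under 0.05, against 3.71% of genes. With the replicate block, RBM22 joined it (2 of 26, against 5.43%). RBM22 had 80.7%, 82.4% and 79.2% of its counts in coding transcripts in the controls and 84.6%, 89.1% and 86.4% with siDDX5. The groups did not overlap, with retained-intron transcripts making up the rest, yet the edgeR adjusted p was 1.00. RBM6 had 62.2%, 63.9% and 58.6% in coding transcripts in the controls and 69.0%, 69.2% and 66.6% with siDDX5, and 34.5%, 31.5% and 38.2% against 27.5%, 25.9% and 30.4% in decay transcripts. These groups were also separate, with an edgeR adjusted p of 1.00 for the gene. Over the tested members, the groups did not overlap in 2 of 36 coding shares, both higher with siDDX5. In decay shares (15 genes) and in retained-intron shares (19 genes), 1 was higher and 1 lower. Among other noncoding shares (25 genes), 2 were lower, those of RBM6 and RBM17. The matching counts over all genes were not computed, so no shift toward coding is read from these. Not every separate share moved toward coding transcripts. RBM7, which was not among the 26, had 0.318%, 0.128% and 0.379% of its counts in a retained-intron transcript in the controls and 1.4%, 0.938% and 0.594% with siDDX5. The whole gene had 593.1 to 1120.8 counts per library, so these shares stand for few counts, near the floor of 3 counts. The decay share of RBM28 was also higher in each siDDX5 library.

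**Figure D4:**
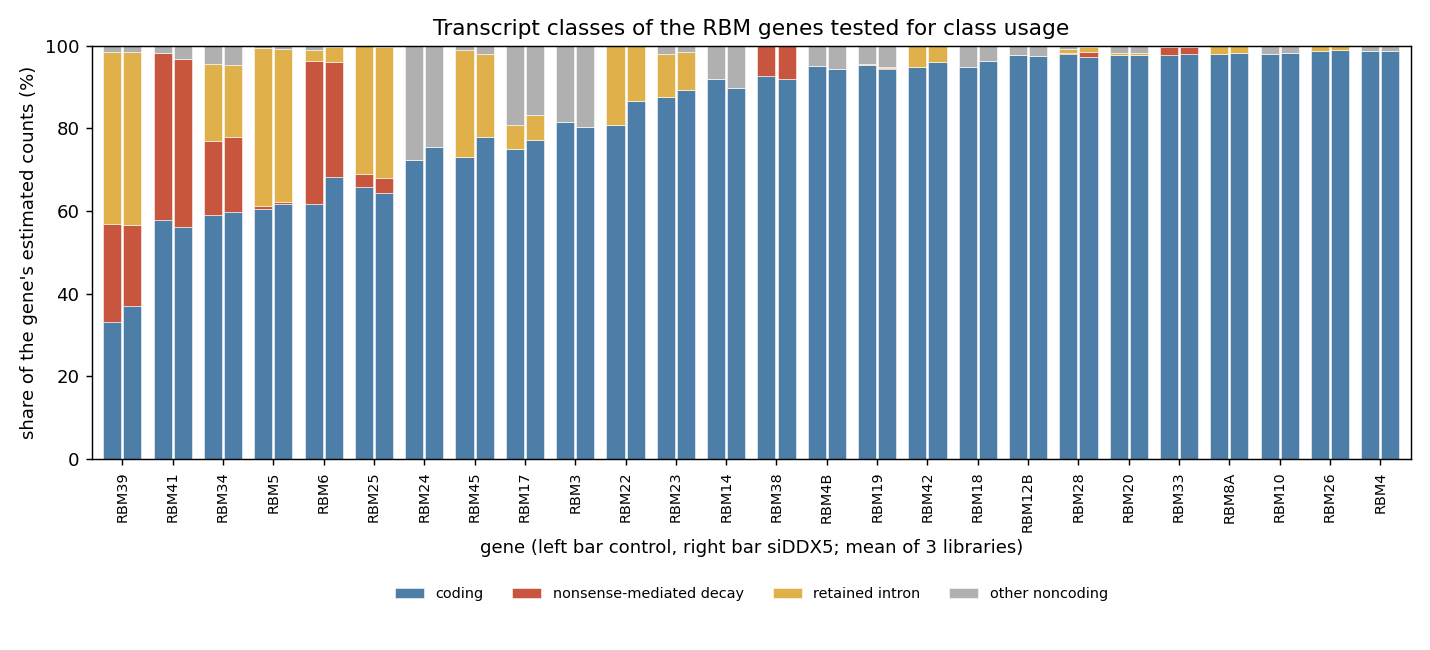
Mean share of each gene's estimated counts in coding, decay, retained-intron and other noncoding transcripts for the 26 RBM genes tested for class usage, with control on the left and siDDX5 on the right of each pair of bars. The decay class, keyed as nonsense-mediated decay, also takes in non-stop decay. RBM39 has the lowest coding share, at 33.2% and 37.0%, and most genes at the right are nearly all coding by estimated counts.

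Transcript usage asks whether a gene's counts are divided differently among its transcripts. Of 30 members with at least 2 testable transcripts (216 transcripts in all), 1 passed at an adjusted p of 0.05, RBM6, against 171 of 10704 genes (1.6%). With the replicate block it was again RBM6, against 127 genes (1.19%). At an unadjusted p under 0.05 there were 3 members, against 5.18% of genes, and 5 with the block, against 6%. The transcript behind this call, ENST00000443081, stood at 0 in each of the 3 controls and had 31, 66 and 55 estimated counts in the siDDX5 libraries. It therefore passed the filter on low counts through the siDDX5 libraries alone, so that a difference in that direction was built into its being tested, and its p-value is not independent support.

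As a share of RBM6 counts it was 1.49%, 3.76% and 2.48% in siDDX5 libraries 1, 2 and 3. The 3 zeros among the controls each allow a share of up to 0.103% to 0.115% of the gene's counts, which covers counting error and not the error of dividing shared reads. The edgeR adjusted p for RBM6 was 6.25e-09, and 3.25e-06 with the replicate block. With transcripts under a mean of 50 counts left out, which removes this one, the edgeR adjusted p was 1.00. RBM6 lies at chr3:49940007-50100045 on the plus strand (GRCh38). Compared with the main coding transcript ENST00000266022, this transcript begins exon 3 at an acceptor 272 bases upstream, at chr3:49967198-49967469, and its annotated coding sequence has 991 codons against 1123. Both junctions are shown to let the change of acceptor be read, with the end of exon 2 in lower case and the start of exon 3 in capitals.
RBM6 ENST00000266022, exon 2 to exon 3: aactggaccttttcgTGGGAGCCAAGAAGA
RBM6 ENST00000443081, exon 2 to extended exon 3: aactggaccttttcgGACTGGGTGAAAGCT

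The upstream acceptor is not particular to this transcript. It is shared by 3 other annotated transcripts, among them the decay transcript ENST00000454079, which also keeps a 414-base intron at chr3:50061548-50061961. ENST00000454079 held 29.1%, 26.2% and 31.3% of RBM6 counts in the controls and 22.9%, 21.7% and 25.7% with siDDX5, so that all 3 siDDX5 libraries were below all 3 controls, although the transcript's own unadjusted p in edgeR's usage fit was 0.381. The border of the kept intron and the spliced junction are given with the exon in lower case and the intron, or the next exon, in capitals.
RBM6 ENST00000454079, exon to kept intron: gaccccaatacccagGTGAGTTTGGGGCTT
RBM6 ENST00000266022, exon 14 to exon 15: gaccccaatacccagCAAGAAGTCTATGTG

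Summed over transcripts, use of the upstream acceptor was 39.0%, 33.3% and 37.9% in the controls and 30.8%, 36.1% and 36.4% with siDDX5, and the groups overlapped. ENST00000454079 is the one transcript that keeps the 414-base intron, so the next value restates its share over a smaller total. The intron was kept in 31.9%, 29.6% and 34.9% of the counts that span it in the controls and in 25.1%, 24% and 28.5% with siDDX5. These groups did not overlap. The called transcript differs from ENST00000454079 in having this intron spliced out, and RBM6 as a whole did not pass the gene-level test.

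RBM33, which binds the m6A eraser ALKBH5 and takes part in RNA export, came next. Its transcript ENST00000341148 was at 0%, 6.10% and 0.947% of the gene's counts in the controls and 7.5%, 22.4% and 12.7% with siDDX5. The 3 siDDX5 libraries were above the 3 controls, with control library 2 the nearest to them. The edgeR adjusted p was 0.290, or 0.0547 with the replicate block, and between 0.00280 (without control library 2) and 1.00 when 1 library was left out. The long transcript ENST00000401878 held 88.3%, 81.0% and 86.3% in the controls and 81.0%, 66.8% and 74.0% with siDDX5. The short form starts from a first exon of 80 bases at chr7:155746586-155746665, inside the intron between exons 14 and 15 of the long form, and its annotated coding sequence has 106 codons against 1170. The 2 routes into the same downstream exon are given with that exon in capitals.
RBM33 ENST00000401878, exon 14 to exon 15: aagctgtcaggtgggGGAGGAGAGAGCGAT
RBM33 ENST00000341148, exon 1 to exon 2: gtcttattagttgtgGGAGGAGAGAGCGAT

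RBM39 had 28 testable transcripts. ENST00000253363 was at 2.16%, 1.1% and 0% of its counts in the controls and 0%, 6.53% and 6.57% with siDDX5. The groups overlapped, since siDDX5 library 1 was listed at 0, and the edgeR adjusted p of 0.785 became 0.0105 without that library, up to 1.00 without another, and 1.00 with the replicate block. The transcript uses an acceptor 18 bases upstream in exon 13 and codes for 530 codons against 524. The next shares are of the summed counts of transcripts that hold either of the junctions below, not of all RBM39 counts. On this base the upstream acceptor was used in 38.2%, 43.6% and 41.3% in the controls and 43.6%, 43.3% and 48.0% with siDDX5, again with overlap. The capitals below mark exon 13 in each form.
RBM39 ENST00000361162, exon 12 to exon 13: ttggtgctgtggcagATTTGCAAACAAGAC
RBM39 ENST00000253363, exon 12 to longer exon 13: ttggtgctgtggcagAATTCTCTTTTGTTA

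In RBM28 the decay transcript ENST00000487602 was at 0%, 0.779% and 0% of counts in the controls and 0.934%, 1.25% and 1.42% with siDDX5. The groups were separate at a low level of 16 to 18.7 counts per siDDX5 library. It too passed the filter on low counts through the siDDX5 libraries and 1 control. The edgeR adjusted p was 1.00, and the values of 0.0112 for usage and 0.00528 for classes without control library 2 come from leaving out the one control in which the transcript was detected, while other libraries left out gave up to 1.00. This transcript skips a 74-base exon at chr7:128325818-128325891, which is exon 11 of the coding form. In the sequences below the capitals mark the exon joined after exon 10 of the coding form.
RBM28 ENST00000223073, exon 10 to exon 11: cagagcattctaaagGTTGTGCATTTGCCC
RBM28 ENST00000487602, exon 11 skipped: cagagcattctaaagGCTGGTGGGCTTAAA

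RBM12, which shares its locus on chromosome 20 with CPNE1, had a call that rested on leaving out 1 library. Its transcript ENST00000359646 was at 3.13%, 3.07% and 1.28% of counts in the controls, at 0% in siDDX5 library 1, 2.56% in library 2 and under 0.1% in library 3. The groups overlapped through siDDX5 library 2. The edgeR adjusted p was 1.00 with all libraries and 1.26e-05 without that library, the one siDDX5 library in which the transcript was clearly detected. With that library left out, the transcript passed the filter on low counts through the controls alone, so that p-value is not independent support. RBM14 was the fifth-ranked member for usage, with an adjusted p of 1.00. Its short coding transcript ENST00000393979 was at 0.201%, 0.371% and 0.524% of counts in the controls and 0.455%, 1.89% and 1.34% with siDDX5, and the groups overlapped.

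**Figure D5:**
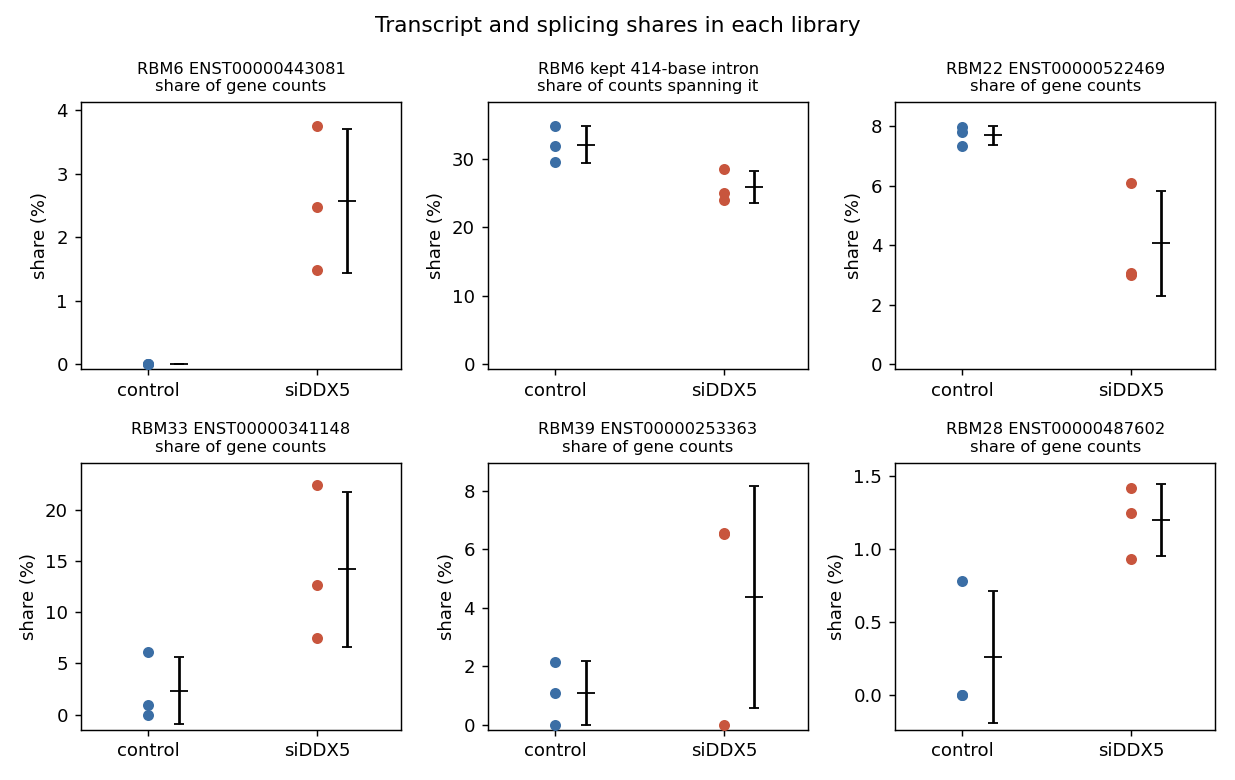
Shares in each library (points) with the mean and SD of each group for 6 measures: 2 of RBM6, and 1 transcript each of RBM33, RBM39, RBM28 and RBM22. The groups are apart in every panel except that of RBM39, where siDDX5 library 1 is at 0%. RBM6 is the gene that passed the usage test, through a transcript at 0% in every control that passed the filter by its siDDX5 counts alone.

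RBM24 and RBM22 were the last of the named members. The shorter RBM24 transcript ENST00000318204 (191 codons against 236 in ENST00000379052) held 27.7%, 29% and 27.5% of counts in the controls and 27.9%, 43.9% and 37.0% with siDDX5, with overlapping groups and an adjusted p of 1.00. In RBM22, the retained-intron transcript ENST00000522469, which runs past the splice site into an intron at chr5:150694241-150695505, held 7.34%, 7.79% and 7.96% in the controls and 6.10%, 3.01% and 3.06% with siDDX5. The groups did not overlap, and the gene's edgeR adjusted p was 1.00. The border is shown with the intron in capitals.
RBM22 ENST00000522469, exon to intron: tgagacagatttaagGTTTGTGGGTATAAG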

How the data were processed

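The submitters' processing notes name bcl2fastq 2.20, FastQC 0.11.8, cutadapt 1.11 and kallisto 0.46.0, with the GRCh38 (hg38) build. The authors deposited, per transcript and library, estimated counts and TPM values, and kallisto's uncertainty in splitting shared reads among transcripts is not in these tables. The kit was stranded, per the labels; whether counting used the strand is not given in the sources used here.

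Transcripts were joined to GENCODE release 29: 169797 of 188753 (90.0%) by identifier, 15322 by gene symbol and 890 by position, and 2744 were not joined. Joined transcripts held 99.59% to 99.63% of counts. Estimated counts were summed by gene or class, rounded, filtered with filterByExpr, and scaled by TMM. Groups were compared with edgeR 4.0.16 in R 4.3.3 (quasi-likelihood test, and diffSpliceDGE with Simes p-values for usage), with Benjamini-Hochberg adjustment over all genes tested. Members and gene lists were chosen with earlier results of these data known. Named members were those called in any fit, up to 12 of at least 5 CPM whose groups did not overlap, the 5 lowest p-values for usage and for class usage, the 3 highest in TPM, and the untested. The scripts were tested on simulated data, where the usage and class tests recovered most changed genes but made more false calls than their threshold allows. The simulated usage and class changes were of 2 on the log2 scale, in the most abundant transcript or class of a gene. They held no error of dividing shared reads, so this recovery does not cover the minor transcripts named here. Deviations from the group mean of same-numbered libraries correlated at 0.20, 0.26 and 0.56 over 15223 genes. The main fits used the group alone and did not pair these libraries, so their SEs, intervals and p-values leave this correlation out. Pairing by replicate number entered only through the replicate block. Alternatives were DESeq2 1.42.0, limma 3.58.1 on log2(TPM + 1) and log2(TPM + 0.1), length-scaled counts, other filters and joins, the replicate block, and leaving out each library. Sequences and coordinates come from GENCODE release 29, whose transcript versions can differ in length from the deposited ones.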

Additional observations from a re-analysis of the deposited data

How the results depend on the processing

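No RBM gene passed the gene-level test in any alternative, and RBM6 was called for usage with DESeq2 size factors, no filter, the replicate block, the primary-assembly join and each library left out, though not with the filter at a mean of 50 counts, which removes its transcript and left 0 members called. The transcript behind the main RBM6 call was at 0 in every control, so these refits share the direction built into its being tested. They are not independent support for the call. Usage was not refitted with the DESeq2 Wald test, limma or length-scaled counts. Leaving out a library gave 1 to 3 members called for usage and 0 to 1 for class usage; RBM33 and RBM28 joined without control replicate 2, RBM39 without siDDX5 replicate 1 and RBM12 without siDDX5 replicate 2. Over all genes, 25 calls at gene level became 323 under DESeq2's Wald test, 136 when low genes were kept, 1 with limma at either pseudocount, 2 with length-scaled counts, and 394 with the replicate block, which otherwise changed no call on a member or partner. Leaving out a library gave 0 to 15 calls; 0 came from leaving out control replicate 1 (1245 genes at unadjusted p under 0.05) or siDDX5 replicate 1 (2042 genes). For usage, 171 calls became 387 with no filter, 39 at a mean of 50 counts, and 212 to 441 without a library. For class usage, 27 became 17 at a mean of 50 counts and 8 to 72 without a library. The cause of these shifts was not tested. DDX5 missed the threshold with limma at a pseudocount of 1 or 0.1 (-1.44 each, limma adjusted p = 0.0849 and 0.0927) and in edgeR with length-scaled counts (-1.37, edgeR adjusted p = 0.0667), and ran from -1.54 to -1.30 without a library, missing the threshold without control replicate 1, siDDX5 replicate 1 or siDDX5 replicate 2 (edgeR adjusted p = 0.0955, 0.0655 and 0.0531).

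Members near 0 changed sign in 44 of 534 alternative values, none past the threshold. With limma on TPM (both pseudocounts) the log2 fold change was -0.07 for RBM17, -0.20 for RBM12, -0.03 for RBM23, -0.05 for RBM12B, -0.01 for RBM38 and 0.03 for RBM3. With length-scaled counts it was -0.02 for RBM17, -0.14 for RBM12, 0.00 for RBM12B, 0.02 for RBM33, 0.03 for RBM45 and 0.07 for RBM3. RBM3 was also at 0.00 with DESeq2 size factors, the DESeq2 Wald test, the replicate block and the primary-assembly join. Without a library, sign changes left RBM39 from -0.01 to 0.19, RBM3 from -0.27 to 0.27, RBM17 from 0.00 to 0.08, RBM8A from -0.04 to 0.26, RBM25 from -0.10 to 0.09, RBM23 from 0.00 to 0.11, RBM28 from -0.04 to 0.08, RBM38 from -0.11 to 0.21, RBM33 from -0.17 to 0.03, RBM42 from -0.18 to 0.20, RBM41 from -0.14 to 0.14 and RBM47 from -0.41 to 0.13.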
